A study of Rattus norvegicus with 11 samples.

Results

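The opioid and pain neuropeptide genes examined here are 5 genes whose RNA was counted in the ipsilateral spinal cord of rats: Penk (ENSRNOG00000008943), Pdyn (ENSRNOG00000026036), Tac1 (ENSRNOG00000007374), Calca (ENSRNOG00000011130) and Sst (ENSRNOG00000001837). They were selected by Ensembl gene ID from the 32623 IDs of the count table. The symbols came with the selection, since the table holds IDs only, and they could not be checked against a gene table here. All 5 passed the filter on low counts, which kept 15758 genes.

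The 11 libraries came from adult male rats of 350 to 400 g and fall into 3 groups. The Naive group (3 libraries) had neither drug nor electrode. The PTX+Sham SCS group (5 libraries, "sham" below) received paclitaxel, a microtubule-stabilising chemotherapy drug known for causing painful neuropathy, and an electrode for spinal cord stimulation (SCS) that was left off. Paclitaxel was injected intraperitoneally at 1.5 mg/kg on 4 days (1, 3, 5 and 7). The PTX+SCS group (3 libraries, "stimulated" below, numbered SCS 1, SCS 2 and SCS 5) had the same drug and electrode, with daily stimulation at 50 Hz, a pulse of 0.2 ms and 80% of a current abbreviated MoT in the labels. No group analysed here had only the drug or only the electrode. The labels give no strain, no day of tissue collection and no statement that each library is a separate rat, and the tests below rest on the variation among libraries, which may be technical. The sample titles mark stimulated libraries with S and sham libraries with X, and the group label was followed. The letter S could also be read as sham, in which case the sham and stimulated groups would be exchanged, and the directions below hold for the group label only.

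Neuropeptides are made as larger precursor proteins, cut in dense-core vesicles and released alongside fast transmitters. In the dorsal horn of the spinal cord, enkephalins from Penk act mainly on delta and mu opioid receptors and dynorphins from Pdyn on the kappa receptor, and both peptide families are known for dampening or shaping pain signals. Tac1 encodes the precursor of substance P and neurokinin A, which excite dorsal horn neurons through neurokinin receptors. Calca encodes calcitonin and, by alternative splicing, the alpha form of calcitonin gene-related peptide (CGRP), a peptide of pain-sensing afferent fibres and of motor neurons. Sst encodes somatostatin, found in excitatory interneurons of the superficial dorsal horn. Counts per gene do not separate the splice forms of Calca or Tac1, and RNA in the cord leaves out the cell bodies of afferent neurons in the dorsal root ganglia.

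Promoter sequence, which carries the sites that activity-dependent transcription factors bind, is shown for the 4 genes with an entry. Pdyn and Tac1 were both high in sham 3 and SCS 5 and low in SCS 2 within their groups. Calca had the widest difference between groups, and Sst alone of the 4 holds the whole cyclic-AMP response element (CRE). A link between sequence and level was not tested. The sequences are RefSeq's for build GRCr8, matched by symbol for 4 of the 5 genes, and Penk had no entry. Each runs 5′ to 3′ from 250 bases before to 50 bases after the annotated start of the gene. Capitals mark the CRE (TGACGTCA), its half-site (TGACG, on either strand) and the TATA box (TATAAA, on the gene's strand).
Pdyn promoter (chr3:137366454-137366753, minus strand): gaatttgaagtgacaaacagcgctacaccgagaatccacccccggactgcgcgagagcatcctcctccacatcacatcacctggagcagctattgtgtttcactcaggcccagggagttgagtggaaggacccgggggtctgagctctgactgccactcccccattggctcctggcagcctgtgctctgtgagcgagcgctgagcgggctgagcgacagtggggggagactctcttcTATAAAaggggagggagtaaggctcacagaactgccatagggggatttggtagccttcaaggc
Tac1 promoter (chr4:36645333-36645632, plus strand): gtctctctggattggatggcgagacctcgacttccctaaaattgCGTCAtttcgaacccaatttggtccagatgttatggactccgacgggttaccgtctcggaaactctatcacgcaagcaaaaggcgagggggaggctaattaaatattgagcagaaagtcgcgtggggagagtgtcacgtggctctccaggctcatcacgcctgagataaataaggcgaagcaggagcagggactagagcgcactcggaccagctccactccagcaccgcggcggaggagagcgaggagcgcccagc
Calca promoter (chr1:178317480-178317779, minus strand): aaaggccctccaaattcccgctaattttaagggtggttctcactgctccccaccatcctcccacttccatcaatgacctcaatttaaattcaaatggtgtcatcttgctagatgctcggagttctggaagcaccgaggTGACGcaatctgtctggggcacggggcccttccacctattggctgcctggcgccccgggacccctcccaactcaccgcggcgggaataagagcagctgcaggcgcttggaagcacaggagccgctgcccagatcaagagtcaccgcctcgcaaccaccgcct
Sst promoter (chr11:90461296-90461595, plus strand): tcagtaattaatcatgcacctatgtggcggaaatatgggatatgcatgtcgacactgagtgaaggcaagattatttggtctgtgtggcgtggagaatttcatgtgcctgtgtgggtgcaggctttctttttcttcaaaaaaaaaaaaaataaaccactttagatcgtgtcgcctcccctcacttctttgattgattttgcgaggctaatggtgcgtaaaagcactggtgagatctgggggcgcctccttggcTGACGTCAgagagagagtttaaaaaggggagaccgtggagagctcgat

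The full CRE was found in Sst alone, starting at position 3 counted from the annotated start, and 1.83% of the 33469 RefSeq promoters of this length hold it. Its half-site, which lies within every full CRE, was found in Tac1 at -206 and in Calca at -112, and 21.2% of all these promoters hold it. Pdyn had neither, and it had the TATA box at -13, present in 8.8% of promoters. The AP-1 motif TGANTCA, held by 7.33% of promoters, was not among the letters of these 4 windows. The libraries measure RNA and not binding, so these matches describe the sequences only. Positions count from the annotated start, which was not checked against where transcription begins.

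Expression is given as CPM, the counts of a gene scaled to a common library total with TMM factors. Library totals were 17401720 to 56775931 counts for the naive, 11243288 to 22144967 for the sham and 18633243 to 29395233 for the stimulated group. The 5 genes held 216 counts (Pdyn in sham 4) to 9828 counts (Penk in naive 3) per library, so counting error was at most 6.80% of a value. On the first principal component of all tested genes (35.7% of the variance), SCS 2 lay farthest from the naive libraries, at 50.7 against -28.9 to -23.9. Differences between groups were tested by the quasi-likelihood test of edgeR in 1 fit of all 11 libraries, with p-values adjusted by the Benjamini-Hochberg method over all 15758 genes, and each fold change is given with its 95% interval. In whole-tissue RNA, fewer cells of a type and less RNA per cell cannot be told apart.

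None of the 5 genes passed an adjusted p of 0.05 by the edgeR test in any of the 3 comparisons. In sham against naive 0 of 5 passed, where 0.14% of all tested genes did. In stimulated against sham it was 0 of 5 against 3.57%, and in stimulated against naive 0 of 5 against 14.9%. At an unadjusted p under 0.05 there was 1 gene in sham against naive (Pdyn), 2 in stimulated against sham (Tac1 and Calca) and 1 in stimulated against naive (Pdyn), where 7.98%, 20.1% and 29.3% of all tested genes reached that level. DESeq2 called 0 of the 5 in each comparison. The limma-voom test called 1 (Calca in stimulated against sham), with and without sample quality weights. The 15 intervals reached from 0.464-fold (Calca in stimulated against sham) to 1.77-fold (Calca in sham against naive).

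**Figure D1:**
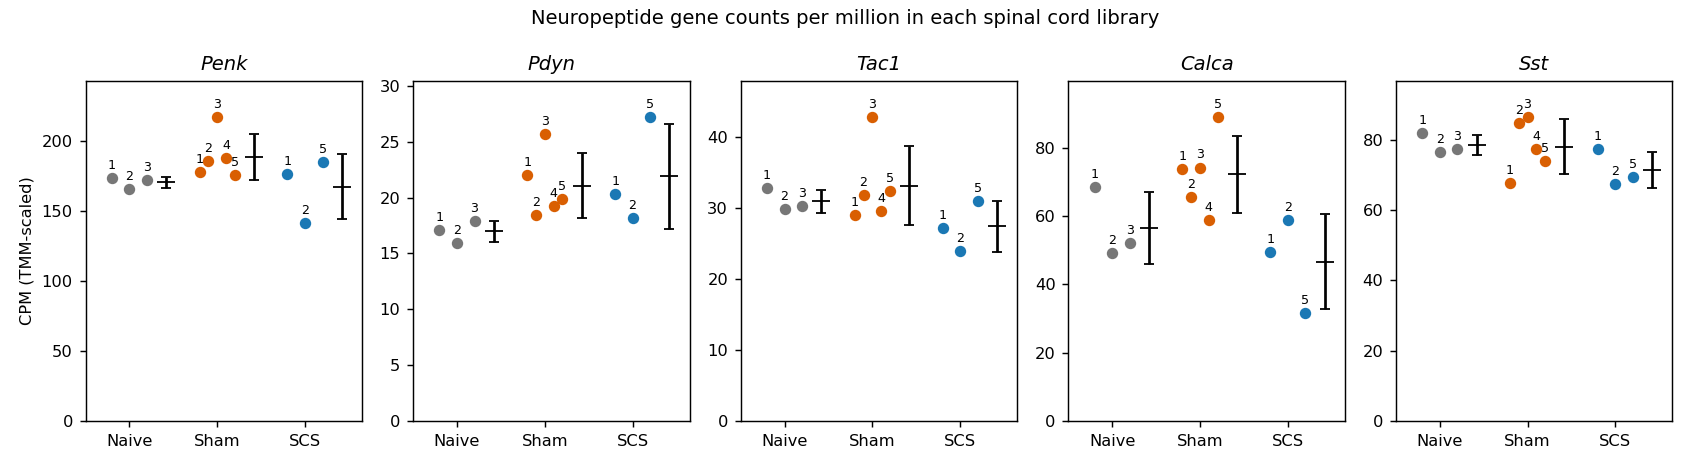
CPM of the 5 genes (vertical axes, starting at 0) in each library, with 3 naive, 5 sham and 3 stimulated (SCS) libraries along the horizontal axis. Points carry the replicate number, and bars give the mean and SD. Pdyn was lowest in the 3 naive libraries, an order whose share among all tested genes was not computed. Calca spread from 31.5 CPM in SCS 5 to 88.9 CPM in sham 5.

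The opioid precursor gene Penk stood at 174, 166 and 172 CPM in naive 1, 2 and 3. Sham 1 to 5 held 178, 186, 217, 188 and 176 CPM, and SCS 1, 2 and 5 held 176, 141 and 185 CPM. Each sham library thus lay above each naive library, by little, while the stimulated libraries spread on both sides of the naive ones. The means were 171 ± 3.97 CPM in naive (SD, n = 3), 189 ± 16.5 CPM in sham (SD, n = 5) and 168 ± 23.2 CPM in stimulated libraries (SD, n = 3). Sham against naive was 1.11-fold (0.978 to 1.26, edgeR adjusted p = 0.679), and stimulated against sham was 0.887-fold (0.783 to 1.01, edgeR adjusted p = 0.269). Stimulated against naive was 0.983-fold (0.856 to 1.13, edgeR adjusted p = 0.893). In order of their means the groups ran stimulated, naive and sham, and no neighbours in that order passed the test. Without SCS 2, the lowest library, stimulated against sham was -0.06 on the log2 scale, against -0.17 with it. Without sham 3, the highest, sham against naive was 0.09, against 0.15 with it.

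The second opioid precursor gene, Pdyn, was at 17.1, 16.0 and 17.9 CPM in naive 1, 2 and 3. It was at 22.0, 18.4, 25.7, 19.3 and 19.9 CPM in sham 1 to 5, and at 20.3, 18.1 and 27.2 CPM in SCS 1, 2 and 5. All 8 libraries from paclitaxel-treated rats therefore lay above the 3 naive libraries. The share of all tested genes that set these 8 apart from the 3 was not computed. The means were 17.0 ± 0.956 CPM in naive (SD, n = 3), 21.1 ± 2.93 CPM in sham (SD, n = 5) and 21.9 ± 4.71 CPM in stimulated libraries (SD, n = 3). The difference was 1.24-fold in sham against naive (1.02 to 1.50, edgeR adjusted p = 0.584) and 1.29-fold in stimulated against naive (1.04 to 1.59, edgeR adjusted p = 0.0992). Neither passed, and both use the same naive libraries, so they are not separate observations of a difference. The gap between the nearest libraries, naive 3 and SCS 2, was 17.9 against 18.1 CPM, smaller than the counting error of SCS 2 (5.43%). Stimulated against sham was 1.04-fold (0.859 to 1.26, edgeR adjusted p = 0.857). Stimulated against naive passed in 1 of 19 alternatives, without SCS 2 (log2 fold change 0.49, edgeR adjusted p = 0.0467, range over the alternatives 0.0467 to 0.376). Without SCS 5, the highest library, the log2 fold change fell to 0.18 from 0.37.

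Sham and naive libraries did not overlap for 2 of the 5 genes (Penk and Pdyn, both higher in sham), as for 7.03% of all tested genes (3.96% with sham higher). Stimulated and sham libraries were apart for 1 of the 5 (Calca, lower with stimulation), and for 10.2% of tested genes (4.01% lower). Under scaling by median ratios instead of TMM this Calca separation was lost, with SCS 2 above sham 4. Stimulated and naive libraries were apart for 1 of the 5 (Pdyn, higher with stimulation), and for 36.3% of tested genes (18.1% higher).

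Tac1, the substance P gene, was at 32.8, 29.8 and 30.3 CPM in naive 1, 2 and 3. Its level was 29.0, 31.9, 42.7, 29.6 and 32.3 CPM in sham 1 to 5, and 27.2, 23.9 and 31.0 CPM in SCS 1, 2 and 5. Sham 3 stood above all other libraries, and the other 4 sham libraries lay in or near the range of the naive ones. The means were 31.0 ± 1.61 CPM in naive (SD, n = 3), 33.1 ± 5.57 CPM in sham (SD, n = 5) and 27.4 ± 3.55 CPM in stimulated libraries (SD, n = 3). Sham against naive was 1.07-fold (0.9 to 1.27, edgeR adjusted p = 0.865), and it was -0.01 on the log2 scale without sham 3, against 0.10 with it. Stimulated against sham was 0.829-fold (0.696 to 0.988, edgeR adjusted p = 0.219), a log2 difference of -0.27, or -0.16 without sham 3. Stimulated against naive was 0.887-fold (0.732 to 1.07, edgeR adjusted p = 0.407), a log2 difference of -0.17 that was -0.07 without SCS 2 and -0.27 without SCS 5. Stimulated was thus the lowest mean and sham the highest, with no neighbours in that order past the test.

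Calca, the CGRP gene, had the widest spread between libraries. It was at 68.5, 49.2 and 52.0 CPM in naive 1, 2 and 3. Sham 1 to 5 held 73.7, 65.5, 74.3, 59.0 and 88.9 CPM, and SCS 1, 2 and 5 held 49.4, 59.0 and 31.5 CPM. The highest value, in sham 5, was 2.82 times the lowest, in SCS 5. The means were 56.6 ± 10.4 CPM in naive (SD, n = 3), 72.3 ± 11.2 CPM in sham (SD, n = 5) and 46.7 ± 13.9 CPM in stimulated libraries (SD, n = 3). Stimulated against sham was 0.643-fold (0.464 to 0.889). On the log2 scale it was -0.64 ± 0.21 (SE), the largest of the 15 differences examined, and it did not pass (edgeR adjusted p = 0.126). The sham and stimulated libraries were separate only by the gap between sham 4 and SCS 2, which both round to 59.0 CPM and whose counting errors were 3.89% and 3.01%. Under scaling by median ratios SCS 2 lay above sham 4 (5.893 against 5.883 log2 CPM), so the 2 groups overlapped.

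The Calca difference of stimulated against sham kept its sign in all 19 alternatives, from -0.83 without SCS 2 to -0.42 without SCS 5 on the log2 scale. SCS 5, which held the least Calca, therefore moved the value by over 1.5 times. The adjusted p ran from 0.0456 to 0.258 over these alternatives. DESeq2 gave 0.0555, limma-voom gave 0.0483, and adding sample quality weights to it gave 0.0456. Sham against naive was 1.29-fold for Calca (0.936 to 1.77, edgeR adjusted p = 0.691), where naive 1 lay inside the range of the sham libraries. Stimulated against naive was 0.827-fold (0.580 to 1.18, edgeR adjusted p = 0.473), or -0.27 on the log2 scale, which was -0.06 without SCS 5 and -0.45 without SCS 2. The comparisons of sham with naive and of stimulated with sham share the 5 sham libraries, so a high value in these moves them in opposite directions by construction.

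Sst, the somatostatin gene, was the steadiest of the 5. It was at 81.8, 76.4 and 77.5 CPM in naive 1, 2 and 3, at 67.6, 84.8, 86.3, 77.5 and 73.8 CPM in sham 1 to 5, and at 77.3, 67.5 and 69.4 CPM in SCS 1, 2 and 5. The 3 groups overlapped throughout, and the highest of the 11 values was 1.28 times the lowest. The means were 78.6 ± 2.83 CPM in naive (SD, n = 3), 78 ± 7.76 CPM in sham (SD, n = 5) and 71.4 ± 5.23 CPM in stimulated libraries (SD, n = 3). Sham against naive was 0.992-fold (0.886 to 1.11, edgeR adjusted p = 0.982). Stimulated against sham was 0.917-fold (0.819 to 1.03, edgeR adjusted p = 0.394), and stimulated against naive was 0.910-fold (0.802 to 1.03, edgeR adjusted p = 0.312). Without SCS 2 both were -0.08 on the log2 scale, against -0.12 and -0.14 with it. For Sst, Penk and Tac1 the intervals of all 3 comparisons leave out a change of 1.5-fold in either direction.

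**Figure D2:**
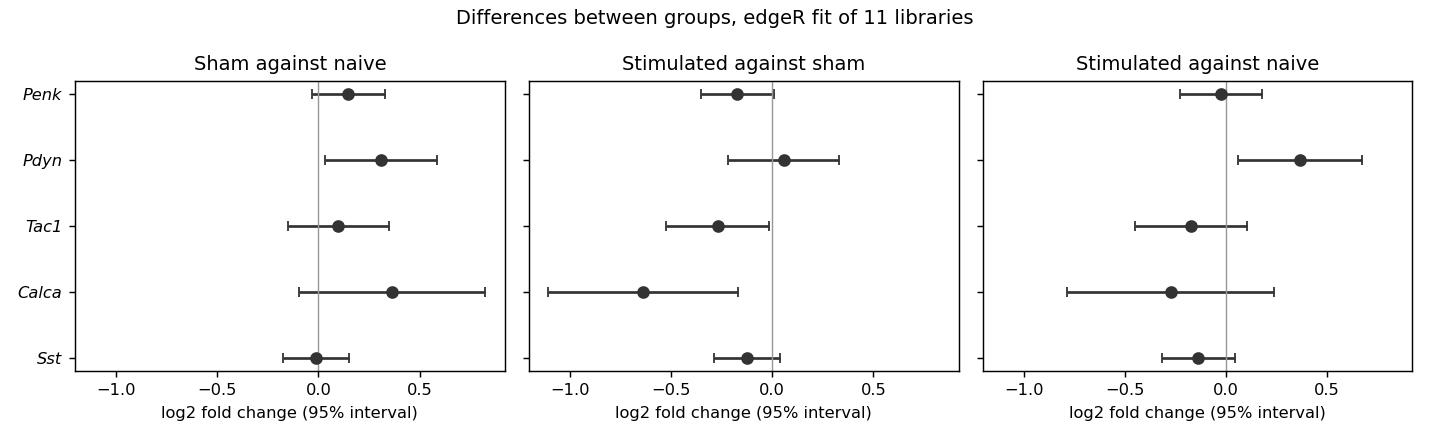
Log2 fold change of each gene (horizontal axis) with its 95% interval from the edgeR fit of 11 libraries, in the 3 comparisons. Calca in stimulated against sham lies farthest from 0, at -0.64. In each comparison the interval of Calca is the widest and that of Sst the narrowest.

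As a set, 4 of the 5 genes had a log2 fold change above 0 in sham against naive, with a median of 0.15, beside a median of 0.01 over all tested genes, of which 48.4% were below 0. In stimulated against sham 4 of the 5 were below 0, with a median of -0.17, beside -0.01 over all tested genes, of which 53.2% were below 0. In stimulated against naive 4 of the 5 were below 0, with a median of -0.14, beside -0.02 over all tested genes, of which 53.1% were below 0. Pdyn was the exception in both comparisons with stimulated libraries. These counts and medians describe 5 genes chosen with earlier results of these data known, and 2 of the 3 comparisons share each group.

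The spread within groups set the precision of these comparisons. The within-group SD of log2 CPM was 0.14 for Penk, 0.21 for Pdyn, 0.19 for Tac1, 0.31 for Calca and 0.12 for Sst. Among the 500 genes nearest in mean level to each, the median SD was 0.08, 0.13, 0.11, 0.09 and 0.09 in the same order. The SD of Calca was larger than that of 99.2% of its 500 nearest genes, and that of Sst larger than that of 77%. The coefficient of variation of Penk was 2.33% among naive, 8.70% among sham and 13.9% among stimulated libraries. That of Pdyn was 5.63%, 13.9% and 21.5%, and that of Tac1 was 5.19%, 16.8% and 12.9%. Tac1 thus varied most among sham libraries, as did Sst (9.95%, against 7.32% among stimulated and less among naive libraries). For Calca the coefficient was 18.4%, 15.5% and 29.9%, so this gene also varied among the naive libraries. The difference in spread between groups was not tested, and the fit pools the spread over the 3 groups.

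Within groups, Penk, Pdyn and Tac1 had deviations of the same sign in several libraries, but no pair of genes passed a test. Taken as deviations of log2 CPM from the group mean, sham 3 was high in all 3 genes (0.20, 0.30 and 0.38), as was SCS 5 (0.15, 0.33 and 0.19), and SCS 2 was low in all 3 (-0.24, -0.25 and -0.19). Calca went the other way in both of these stimulated libraries, at -0.52 in SCS 5 and 0.39 in SCS 2, and was at 0.05 in sham 3. Sst was at 0.15 in sham 3, -0.08 in SCS 2 and -0.04 in SCS 5. The relations were tested by all 4320 reorderings of the libraries within their groups, an exact permutation test, and adjusted over the 10 pairs. Penk and Tac1 had a Pearson r of 0.84 (exact permutation p = 0.0146, adjusted 0.146) and a Spearman rho of 0.83 (exact permutation p = 0.0215, adjusted 0.215). Pdyn and Tac1 had an r of 0.77 (exact permutation p = 0.0336, adjusted 0.168) and a rho of 0.68 (exact permutation p = 0.0692, adjusted 0.231). Penk and Pdyn had an r of 0.77 (exact permutation p = 0.0539, adjusted 0.18) and a rho of 0.63 (exact permutation p = 0.119, adjusted 0.272). Penk and Sst had an r of 0.60 (exact permutation p = 0.0949, adjusted 0.237) and a rho of 0.68 (exact permutation p = 0.0556, adjusted 0.231). For Tac1 and Sst r was 0.60 (exact permutation p = 0.140, adjusted 0.279), and for Pdyn and Sst it was 0.06. Penk and Calca had an r of -0.50 (exact permutation p = 0.313, adjusted 0.522).

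The size of these values rested in part on few libraries. Without the 2 libraries farthest from the median of the first gene, r was 0.73 for Penk and Tac1 (without sham 3 and SCS 2), 0.55 for Penk and Pdyn (without the same libraries) and 0.28 for Pdyn and Tac1 (without sham 3 and SCS 5). With 1 library left out at a time, Penk and Tac1 passed in 1 of 11 fits (without sham 5, adjusted exact permutation p = 0.0463, range 0.0463 to 0.556) and the other 9 pairs in 0. With the group means left in, which was the design chosen first, 0 of 10 pairs passed. There Penk and Tac1 had an r of 0.85 (permutation p = 0.00909, adjusted 0.071) and a rho of 0.36 (permutation p = 0.274, adjusted 0.548). Without sham 3 and SCS 2 that r was 0.06.

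**Figure D3:**
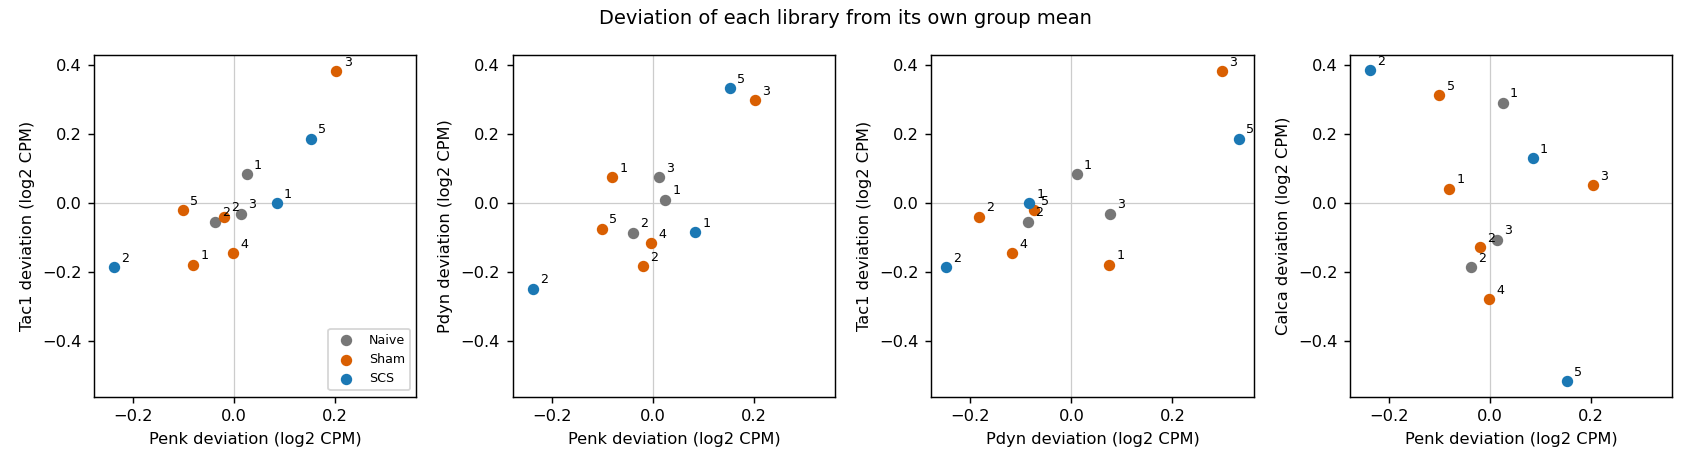
Deviation of log2 CPM from the mean of the library's own group, for 4 pairs of genes, 1 point per library with its replicate number (grey naive, orange sham, blue SCS). Sham 3 and SCS 5 lie at the upper right for Penk, Pdyn and Tac1 and SCS 2 at the lower left, while for Calca SCS 5 lies lowest and SCS 2 highest.

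The ratio of 2 genes' counts within a library does not depend on scaling between libraries. It was computed after the values were seen, for only some of the 10 pairs of genes, and is given without a test. The ratio of Penk to Pdyn counts was 9.64 to 10.4 for naive, 8.09 to 10.1 for sham and 6.81 to 8.68 for stimulated libraries. The 3 stimulated libraries thus lay below the 3 naive ones, and the sham libraries overlapped both. The means were 10.1 ± 0.395 (SD, n = 3), 9.05 ± 0.86 (SD, n = 5) and 7.76 ± 0.934 (SD, n = 3). The ratio of Tac1 to Penk counts also set stimulated libraries (0.154 to 0.169) below naive ones (0.176 to 0.189). That of Sst to Calca counts overlapped between them (1.14 to 2.20 and 1.19 to 1.55). Among single genes, 36.3% of those tested were apart between these 2 groups, Pdyn among them. No such share was computed for ratios. The ratio of Tac1 to Calca counts was 0.479 to 0.606 in naive and 0.364 to 0.576 in sham libraries. In SCS 1, 2 and 5 it was 0.551, 0.406 and 0.983, so SCS 5 lay above the other 10 libraries, the nearest of which was naive 2, while the lowest ratio was that of sham 5. Ratios of counts are not corrected for transcript length and say nothing of which of 2 genes is expressed more.

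**Figure D4:**
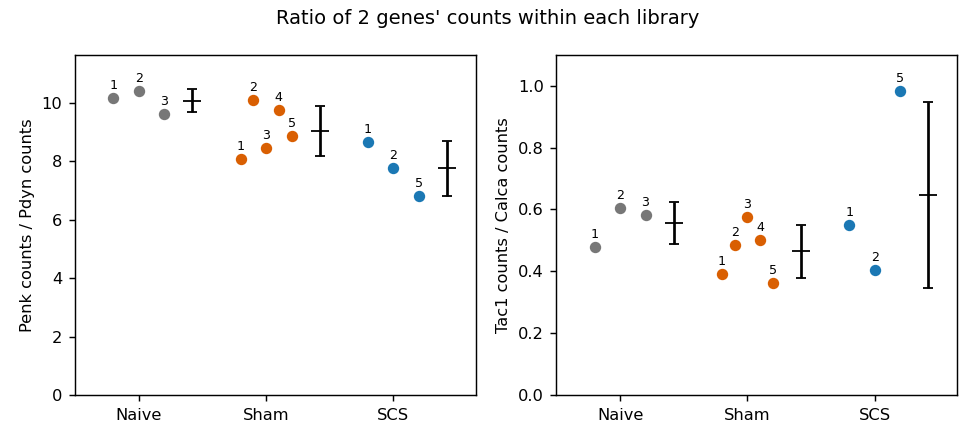
Ratio of Penk to Pdyn counts and of Tac1 to Calca counts in each library (vertical axes, starting at 0), with the replicate number at each point and the mean and SD beside each group. The Penk to Pdyn ratio lies at 9.64 or above in naive and at 8.68 or below in stimulated libraries, and the Tac1 to Calca ratio of 0.983 in SCS 5 is the highest.

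Other genes were compared with these 5 by their pattern over libraries. Among 14459 other genes with a mean of at least 1 CPM, a Pearson r above 0.9 in log2 CPM over the 11 libraries, which share their totals and scaling, was found with 2 genes for Penk, 1 for Pdyn, 1 for Tac1, 0 for Calca and 8 for Sst. The highest r ran from 0.88 (Calca) to 0.94 (Penk). An r below -0.9 was found with 1 gene for Penk, 4 for Tac1 and 3 for Sst, and 0 for Pdyn and Calca. On deviations from the group means, an r above 0.9 was found with 24 genes for Penk, 5 for Pdyn, 8 for Tac1, 18 for Calca and 10 for Sst. Each of these counts was larger than with group means left in. Removing the means leaves fewer degrees of freedom, so a high r arises more easily by chance. The 2 sets of counts are therefore not comparable, and the number expected by chance was not computed. The genes past these cuts are not named, because their IDs could not be paired with symbols here.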

How the data were processed

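Directional libraries were made from poly(A)-selected RNA of 11 samples of ipsilateral spinal cord, per the labels' protocols. Raw counts for each Ensembl gene were made and deposited by the authors. Build rn6, HISAT2, featureCounts and DESeq2 are named in the submitters' processing notes. Versions, annotation, strand setting and filters were not given in the sources used here. Columns were assigned by sample title, and 17 further sample columns were not used. The RefSeq gene table (47357 rows, assembly GRCr8) holds 0 Ensembl IDs, so 0 IDs were matched. Lists of related peptides, receptors, processing enzymes and cell type markers therefore could not be tested, and no further gene was named under the naming rule (the 5 genes, list members that pass, and the 3 genes most like each).

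The 5 genes and lists were chosen with earlier results of these data known. Genes were filtered with filterByExpr (at least 99.926% of each library's counts kept) and scaled by TMM in edgeR 4.0.16 (R 4.3.3), then fitted with glmQLFit (robust, 8 residual degrees of freedom, 1 term per group). SE is the log2 fold change divided by the square root of F, and intervals use the t distribution. Log2 CPM used a prior count of 2. Correlations were tested by 100000 permutations (two-sided), and those of deviations from group means by the 4320 reorderings within groups, a restriction set after the data were seen. No pair of libraries of a group agreed within sampling noise (chi-square per degree of freedom 4.98 to 27.8). Alternatives used DESeq2 1.42.0 and limma 3.58.1, among others. The fit was also run on simulated counts whose spread was taken from these data, which cannot show that it suits the real spread.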

Additional observations from a re-analysis of the deposited data

Results flagged for a closer look

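Tac1 in sham 3, at 42.7 CPM, stood apart from the other 4 sham libraries (29.0 to 32.3 CPM): its gap to the nearest was 0.756 of the range of the group, above the critical value of 0.71 for 5 libraries. It was the only 1 of the 5 sham groups of values, 1 per gene, in which the highest or lowest library was that far out. Chance gives about 1 in 20 groups, but the 5 sets here come from the same libraries and are not independent, so no excess is read from 1 of 5. The naive and stimulated groups, with 3 libraries each, were not tested in this way. Penk in sham 3, at 217 CPM, had a gap of 0.7 of the range, just under the critical value.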

How the results depend on the processing

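Of 285 log2 fold changes recomputed under 19 alternatives, 272 kept their sign and their side of the threshold, 3 passed it and 10 changed sign, none of which passed the test in any setting. The 3 were Calca in stimulated against sham with limma-voom (-0.69, 1 of 5 genes past the threshold) and with quality weights (-0.74, 1 of 5), and Pdyn in stimulated against naive without SCS 2 (0.49, 1 of 5). In these fits 628, 491 and 1091 of all genes passed in the same comparisons. At an adjusted p of 0.1 Pdyn passed in stimulated against naive (1 of 5). With 1 library left out at a time the number of the 5 genes past the threshold was 0 to 1 in stimulated against naive and 0 in the comparisons with sham. Over all genes it was 1018 to 2786 in stimulated against naive, 6 to 56 in sham against naive and 36 to 1057 in stimulated against sham. The values that changed sign reached from -0.13 (Pdyn in stimulated against sham without SCS 5) to 0.10 (Penk in stimulated against naive without SCS 2). Penk in stimulated against naive was 0.0097 with quality weights and 0.0021 with the replicate block, and ran from -0.10 to 0.10 with 1 library left out. Sst in sham against naive was 0.014 with the replicate block (-0.051 to 0.047 with 1 library left out), Tac1 there -0.0096 to 0.15, and Pdyn in stimulated against sham -0.13 to 0.18. Why these values moved was not tested.

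With the replicate number as a block (4 residual degrees of freedom) 0 of the 5 genes passed in each comparison. Fewer genes of any kind passed with the block. Between stimulated and sham libraries there were 5, where the main fit had 563. Between sham and naive libraries there were 9 (main fit 22), and between stimulated and naive libraries 672 (main fit 2342). With so few passing, a count of 0 in the comparisons with sham says little about these 5 genes. Deviations of same-numbered libraries had correlations of -0.17 to 0.13 and no pairing was assumed. Of the 10 correlations between genes, 0 passed on log2 CPM in each setting run and 0 as deviations from group means. With deviations and 1 library left out it was 0 to 1, an alternative added after the data were seen. As deviations r was -0.50 for Penk and Calca, 0.062 for Pdyn and Sst, -0.17 for Tac1 and Calca and -0.022 for Calca and Sst. With 1 library left out these ran from -0.071 to 0.35 (Penk and Calca), -0.42 to 0.50 (Pdyn and Calca) and -0.53 to 0.11 (Pdyn and Sst) on log2 CPM, and as deviations from -0.57 to 0.17 (Pdyn and Calca), -0.33 to 0.25 (Pdyn and Sst), -0.38 to 0.23 (Tac1 and Calca) and -0.19 to 0.17 (Calca and Sst). All 30 mean CPM values moved by less than 1 SD under other scaling. Counting error was at most 6.80% of a value. Power at other depths or numbers of libraries was not examined.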
